A study of Mus musculus with 6 samples.

Results

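The MLL-AF9 leukemia program was examined here as 9 entries of the deposited expression table of 26082 gene names. They were chosen for their known role in MLL-rearranged leukemia, with earlier results of these data known. They comprise the homeobox transcription factor genes Hoxa9 and Hoxa10, which the table joins with a microRNA gene as Hoxa10,Hoxa9,Mir196b, the homeobox gene Hoxa7, joined with a noncoding RNA as Hoxa7,Mira, the HOX partner genes Meis1 and Pbx3, the transcription factor genes Mef2c and Mecom, and 3 chromatin cofactor genes, Dot1l, Men1 and Psip1. RNA-Seq was performed on leukemia cells that were isolated by sorting from marrow of C57BL/6J mice with leukemia. Cells of both groups carried the transduced MLL-AF9 gene. The 3 vehicle control samples and the 3 DS-5272 samples were collected 24 h after an oral dose of vehicle or of 80 mg/kg DS-5272, an inhibitor of the p53-MDM2 interaction. In this model, retroviral MLL-AF9 is driven by a viral promoter in c-Kit+ marrow progenitors, which are transplanted into recipient mice, so that the fusion is not expressed from its own locus. Fusion transcripts cannot be told apart from those of the normal Mll1 (Kmt2a) and Mllt3 genes in the table. Ages were not given, and the labels number the samples 1 to 3 within a group without saying that each came from a separate mouse, so that p-values measure the spread between these samples.

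MLL-AF9 joins the DNA-binding end of the MLL histone methyltransferase to AF9, a partner that binds DOT1L, the H3K79 methyltransferase, and elongation factors. The fusion is held at its target genes by menin, the product of Men1, and by LEDGF, the product of Psip1, which binds nucleosomes carrying methylated H3K36. Its best known direct targets are the late HOXA genes and Meis1, whose products form a DNA-binding complex with PBX3, and high levels of these genes block the maturation of myeloid progenitors.

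The question addressed by the comparison was whether acute p53 activation changed the level of this program. Of the 9 entries, 8 reached a mean of 1 FPKM over the 6 samples and were tested. FPKM values divide the fragments of a gene by transcript length and by library size, so that levels of different genes can be set side by side. The entries for Hoxa9 with Hoxa10, Hoxa7, Meis1 and Pbx3 did not pass the test, and in both groups they were the 4 highest entries of the program. A joined entry holds several genes, so that its rank is not that of a single gene. Among the cofactors, Psip1 fell by a factor of 3.13 and Dot1l fell to 0.703 of its vehicle level, whereas Men1 did not pass. Mef2c rose from near 0 to 1.92 FPKM, and Mecom was listed at 0 throughout. With limma and an adjusted p under 0.05 over the 11130 tested genes, 1 member was higher, 2 were lower and 5 did not pass. The member called higher, Mef2c, reached the mean of 1 FPKM through the DS-5272 samples alone. Its call and the separation of its groups are therefore no support for its change. Of all tested genes, 24.2% were higher and 22.0% were lower. The samples of the groups did not overlap for 3 members, and 61.8% of all tested genes did not overlap. These shares of all genes are large, so that 3 calls among 8 entries are not a result about the program as a whole. The median log2 fold change was −0.05 over the tested members and 0.04 over all tested genes. In bulk RNA, fewer cells that express a gene and less RNA per cell cannot be told apart.

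**Figure D1:**
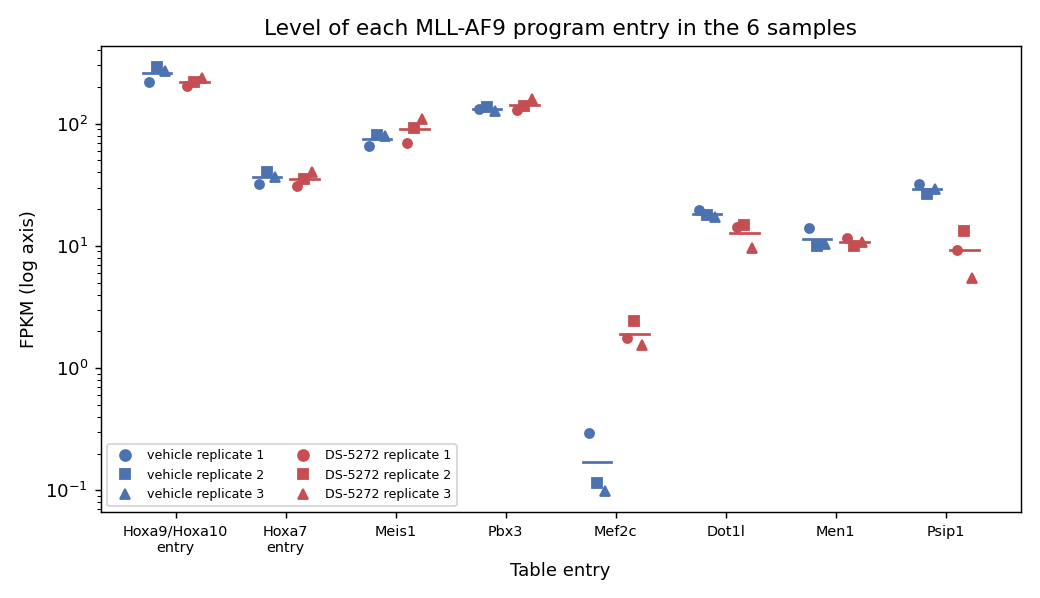
The level of each tested entry in FPKM, on a log axis, is plotted for vehicle (blue) and DS-5272 (red), with 1 point per sample, the symbol giving the replicate number and the line the group mean (n = 3). The groups are separate for Mef2c, Dot1l and Psip1 and overlap for the other 5 entries. Mef2c entered the test through the DS-5272 samples alone.

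The miRNA in the highest entry is shown first, since it lies inside the Hoxa9 gene and its product is processed from the same stretch of chromosome. Mir196b occupies chr6:52230081-52230165 on the minus strand of GRCm38, within an exon of Hoxa9 (chr6:52223100-52231089). Its mature arms from RefSeq (GRCm38.p6) are given 5′ to 3′ with the seed, bases 2 to 8, in capitals, beside the 5p arm of miR-196a, whose genes Mir196a-1 and Mir196a-2 lie outside the HOXA cluster on chr11 and chr15.
mmu-miR-196b-5p: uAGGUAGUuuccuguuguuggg
mmu-miR-196b-3p: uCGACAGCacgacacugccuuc
mmu-miR-196a-5p: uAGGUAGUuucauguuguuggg
The 5p arms share the seed and differ by the single substitution C12A, counted from the 5′ end with the miR-196b base first. Mir196a-1 and Mir196a-2 were listed at 0 FPKM in all 6 samples. The FPKM of the joined entry is a value for the locus and is no measure of mature miR-196b, a 22-base RNA that these libraries were not made to capture.

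Hoxa10 (chr6:52231197-52240854) starts 107 bases beyond Hoxa9, and Hoxa7 (chr6:52214491-52221854) ends 1245 bases on the other side of it. Their products bind DNA in early blood progenitors and are the central effectors of MLL fusions. The Hoxa10,Hoxa9,Mir196b entry stood at 219.8, 290.1 and 267.3 FPKM with vehicle, in the order of replicates 1 to 3, and at 204.3, 218.2 and 237.1 FPKM with DS-5272. The DS-5272 samples were lower on average, but vehicle replicate 1 lay within their range. The mean was 259.1 ± 35.87 FPKM (SD, n = 3) in the first group and 219.9 ± 16.42 FPKM (SD, n = 3) in the other, and the log2 fold change was −0.23 (SE 0.14, 95% interval −0.55 to 0.10, limma adjusted p = 0.205). Its mean stood at percentile 97.6 of the tested genes with vehicle and 96.3 with DS-5272.

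The Hoxa7,Mira entry stood at 31.91, 40.55 and 36.67 FPKM with vehicle and at 30.82, 34.97 and 40.05 FPKM with DS-5272. Its groups overlapped almost completely, with a log2 fold change of −0.04 (SE 0.14, 95% interval −0.37 to 0.28, limma adjusted p = 0.804). Some transcripts of Hoxa7 share exonic bases with the antisense gene Hoxaas3.

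Neither HOXA entry was called as deposited, and both were called on 1 other scaling, the common total. FPKM values summed to between 445316 and 501241 in the vehicle samples and to between 499229 and 661184 in the DS-5272 samples. When every sample was rescaled to a common total (TPM), 15.4% of all tested genes were higher and 31.8% were lower, against 24.2% and 22.0% as deposited, and the median gene moved to −0.21. On that scale the Hoxa10,Hoxa9,Mir196b entry was 493.6, 589.6 and 533.3 TPM with vehicle and 409.3, 376.3 and 358.5 TPM with DS-5272. These samples no longer overlapped, and the entry was called lower by a log2 difference of −0.50 (SE 0.099, limma adjusted p = 0.00942). Hoxa7,Mira was called lower as well, by −0.31 (limma adjusted p = 0.039). The other scalings called neither entry. For Hoxa10,Hoxa9,Mir196b the limma adjusted p was 0.0733 with a common upper quartile and 0.108 with median ratio scaling. For Hoxa7,Mira the limma adjusted p was 0.435 and 0.559.

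**Figure D2:**
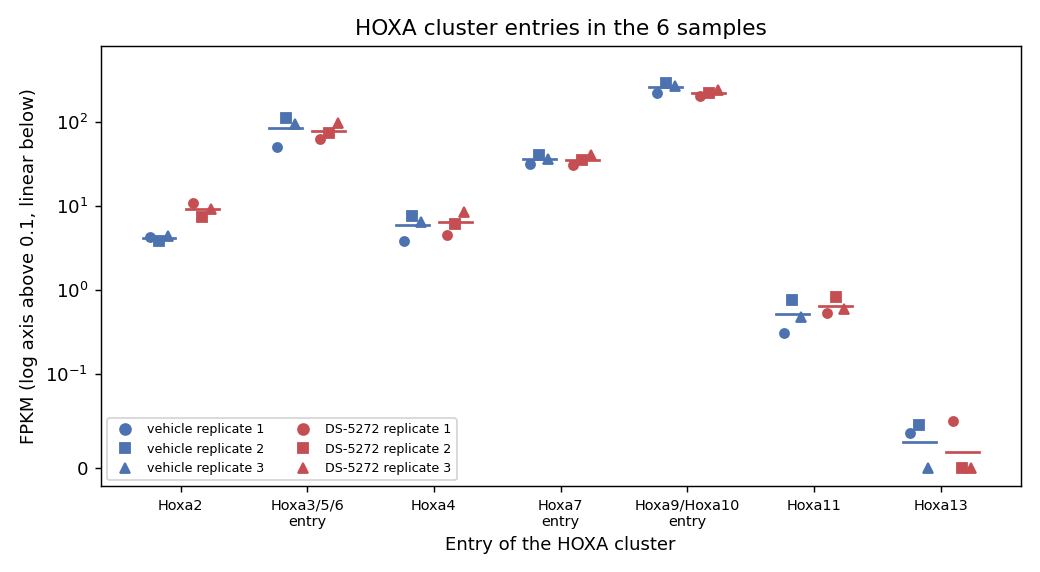
Entries of the HOXA cluster are plotted in FPKM (log axis above 0.1, linear below) for vehicle (blue) and DS-5272 (red), 1 point per sample with a line at the group mean (n = 3). The Hoxa9 with Hoxa10 entry is highest in both groups, and Hoxa2 is the tested entry whose groups are separate.

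Along the rest of the cluster, Hoxa2 was the entry that rose. It stood at 4.26, 3.89 and 4.398 FPKM with vehicle and at 10.78, 7.34 and 9.19 with DS-5272, a log2 fold change of 0.95 (SE 0.15, limma adjusted p = 0.00459), and it was also called on the common total. The joined entry of Hoxa3, Hoxa5 and Hoxa6 overlapped between groups at 50.2, 111.1 and 94.4 against 62.0, 73.3 and 95.8 FPKM. Hoxa4 did not pass, and Hoxa11 and Hoxa13 were under the filter. Of 33 other HOX genes with an entry of their own, 20 were listed at 0 in every sample and 4 were tested, of which Hoxa2 was higher and none was lower (2697 of all tested genes were higher and 2451 lower).

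Meis1 (chr11:18879817-19018985, minus strand) encodes a TALE homeodomain protein that binds DNA with HOXA9. Its level was 66.06, 80.55 and 79.05 FPKM with vehicle and 69.21, 91.57 and 109.9 FPKM with DS-5272. DS-5272 replicate 1 lay among the vehicle samples and the other two lay above them. The mean was 75.22 ± 7.97 FPKM with vehicle and 90.22 ± 20.36 FPKM with DS-5272 (SD, n = 3 each), which is 0.24 on the log2 scale (SE 0.18, 95% interval −0.19 to 0.67, limma adjusted p = 0.310). Without DS-5272 replicate 1 it was 0.42 (limma adjusted p = 0.053), and on the common total its sign turned, to −0.02. Exons of Meis1 overlap Gm16140 on the opposite strand and Gm37818 on its own.

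Pbx3 (chr2:34171457-34373142, minus strand) encodes the PBX partner that stabilises HOXA9 and MEIS1 on DNA. It varied little within the vehicle group, at 131.2, 137.3 and 127.8 FPKM, and stood at 128.2, 140.4 and 158.1 FPKM with DS-5272. The groups overlapped, with a log2 fold change of 0.10 (SE 0.11, 95% interval −0.16 to 0.37, limma adjusted p = 0.474), which turned to −0.16 on the common total without passing.

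A ratio of entries within a sample is free of the scaling. Among the 10 ratios between the 5 members that did not pass, the groups were separate for 4, beside 61.8% of all tested genes whose groups were separate in level. This description was added after the values were seen, and the count is not a result about the members. The ratio of Hoxa10,Hoxa9,Mir196b to Meis1 was 3.33, 3.60 and 3.38 with vehicle and 2.95, 2.38 and 2.16 with DS-5272. All DS-5272 samples were lower, and the same held for its ratio to Pbx3, from 1.68, 2.11 and 2.09 to 1.59, 1.55 and 1.5. The ratio of Hoxa7,Mira to Meis1 went from a mean of 0.483 to 0.397, and that of Hoxa10,Hoxa9,Mir196b to Hoxa7,Mira from 7.11 to 6.26. Each had an exact permutation p of 0.1, two-sided, the smallest that 3 against 3 allows, and 0.25 after adjustment over the 10 ratios.

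**Figure D3:**
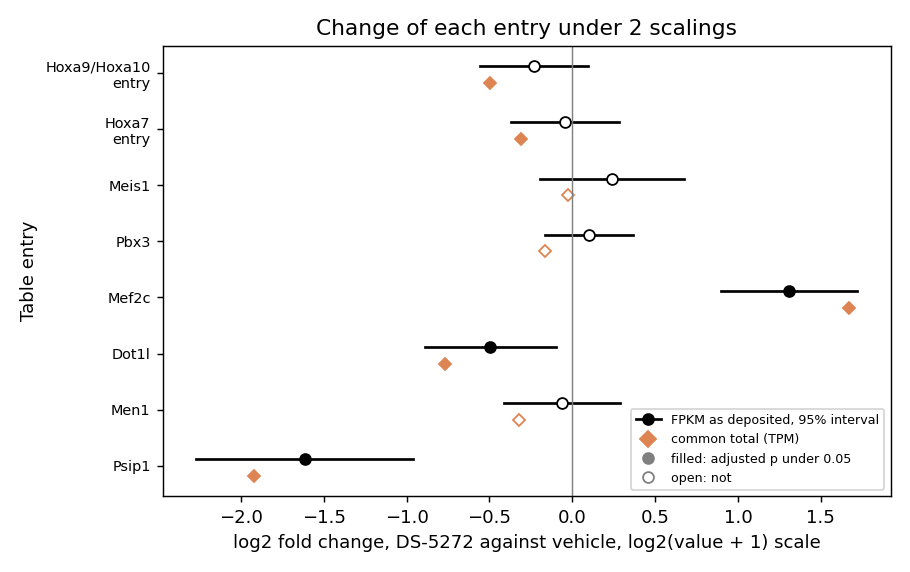
The log2 fold change of each entry, DS-5272 against vehicle on the log2(value + 1) scale, is plotted for FPKM as deposited (black, with the 95% interval) and for the common total (orange diamonds), filled where the adjusted p was under 0.05. Mef2c, Dot1l and Psip1 are called on both scales, and the HOXA entries on the common total alone. Mef2c entered the test through the DS-5272 samples alone, so that its calls are no support for its change.

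Mef2c (chr13:83504034-83667080, plus strand) encodes a MADS-box factor of lymphoid and monocytic progenitors that is highly expressed in some MLL leukemias. With vehicle its mean was at percentile 0.171 of the tested genes. It was 0.295, 0.115 and 0.0984 FPKM with vehicle and 1.76, 2.45 and 1.54 FPKM with DS-5272. Every DS-5272 sample lay above every vehicle sample, and the means, 0.1695 ± 0.109 and 1.92 ± 0.475 FPKM (SD, n = 3), differed 11.3-fold. The log2 fold change was 1.31 (SE 0.17, 95% interval 0.90 to 1.72, limma adjusted p = 0.00312). Its size depends on the pseudocount, reaching 2.95 with 0.1 in place of 1, and the gene passed the filter on low values through the DS-5272 samples alone.

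The rise in Mef2c accompanied a rise in some genes used as markers of other marrow cells. Whether their RNA came from other cells or from the leukemia cells was not tested, nor was their part in the result. Summed macrophage markers were 77.8 to 141 FPKM with vehicle and 207 to 648 with DS-5272, with 4 of 10 tested markers higher and none lower. Of all tested genes, 24.2% were higher and 22.0% were lower. The macrophage sum was highest in DS-5272 replicate 1, as was each listed gene except Adgre1, which was highest in replicate 3 (116.1 FPKM). Leaving out DS-5272 replicate 1 gave a log2 fold change of 1.34 for Mef2c. The macrophage sums of replicates 2 and 3, 207 and 278 FPKM, were also above vehicle, so that this fit cannot decide the part of these markers. Summed megakaryocyte markers were 2.62 to 2.93 FPKM with vehicle and 5.02 to 8.57 with DS-5272, none of 2 tested passing. Summed B cell markers, 5.66 to 8.01 against 4.74 to 6.16 FPKM, overlapped between groups, and neither of the 2 tested passed. Of these, Cd79b stood at 3.155 to 4.787 FPKM and Vpreb3 at 0.6385 to 2.638 FPKM, while Ms4a1 and Pax5, defining genes of B cells, were at or below 0.0549 FPKM in every sample. Summed erythroid markers were 2.52 to 4.68 FPKM with vehicle and 12.7 to 146 with DS-5272, highest in replicate 1, with 2 of 3 tested higher. Among these, Hba-a2 had a mean of 0.564 FPKM with vehicle and 23.4 with DS-5272. It entered the test through the DS-5272 samples alone, so that its call is no support for its rise. Of the endothelial and stromal markers 1 of 2 tested was higher, Pecam1, a gene that myeloid cells also express, with sums of 29.1 to 60.0 against 73.4 to 112 FPKM, while the endothelial genes Cdh5 and Kdr were below 0.1 FPKM in every sample. Of the stromal genes, Col1a1 was 0.9386 to 2.425 FPKM with vehicle and 2.175 to 5.513 with DS-5272 and did not pass, and Cxcl12 and Lepr, both under the filter, were separate between groups at 0.0385 to 0.129 against 0.298 to 0.679 FPKM and 0.0732 to 0.1495 against 0.1875 to 0.741 FPKM. Kdr was separate as well, at up to 0.00817 FPKM with vehicle and up to 0.0274 with DS-5272. T and NK cell markers summed to 1.49 to 2.05 against 1.86 to 4.83 FPKM, and the 1 tested did not pass.

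The other MEF2 genes and the class IIa histone deacetylases that repress MEF2 targets, with the kinases that control them, formed a list of 10 genes. Of 9 tested, 4 were higher and none was lower, with a median log2 fold change of 0.41, beside 24.2% of all tested genes higher. On the common total 2 of the 9 were higher, beside 15.4% of all genes. Sik1, a kinase of class IIa deacetylases, rose from 10.49, 17.24 and 17.14 to 22.68, 40.71 and 55.96 FPKM (log2 fold change 1.30, limma adjusted p = 0.0213). Mef2a rose from 17.55, 18.90 and 18.55 to 29.46, 38.88 and 52.85 FPKM (log2 fold change 1.06, limma adjusted p = 0.00773). Mef2a was thus at a far higher level than Mef2c in both groups, while Mef2b was at or below 0.07 FPKM.

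Mecom (chr3:29951296-30548008, minus strand) encodes EVI1, a stem cell zinc finger factor whose overexpression marks a subset of MLL leukemias. It stood on 2 lines of the table, both listed at 0 in all 6 samples, and was not tested. An exact 0 in an FPKM table can be a failed estimate. Actb, Gapdh, Tbp, Hprt and Eef1a1, genes that nearly all cells use, were well above 0. Being at other loci, they cannot show whether the 0 of Mecom is such a failure. Of 14 other PRDM genes, the family to which Mecom belongs, 6 were tested and Prdm2 alone was higher, beside 24.2% of all tested genes. Its log2 fold change was 0.72, with a limma adjusted p of 0.0153.

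Among the cofactors, Psip1 (chr4:83455680-83486459, minus strand) had the larger change. It was 31.81, 26.54 and 29.13 FPKM with vehicle and 9.18, 13.33 and 5.48 FPKM with DS-5272. The highest DS-5272 sample lay well below the lowest vehicle sample. The mean went from 29.16 ± 2.64 to 9.33 ± 3.93 FPKM (SD, n = 3), and log2(FPKM + 1) fell by 1.62 (SE 0.27, 95% interval −2.27 to −0.96, limma adjusted p = 0.00572). The call held in all 14 alternative settings, between −1.92 and −1.32. In percentile terms Psip1 moved from 71.4 to 38.3 of the tested genes. Exons of Psip1 overlap Snapc3 on the opposite strand.

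Psip1 also changed its place in the order of the program. With vehicle the order by mean FPKM was Hoxa10,Hoxa9,Mir196b, Pbx3, Meis1, Hoxa7,Mira, Psip1, Dot1l, Men1, Mef2c and Mecom, and no neighbours overlapped. Joined entries are placed by the value of their locus. With DS-5272 the first 4 kept their places, while Dot1l (12.86), Men1 (10.79) and Psip1 (9.33) followed without being separated by their spread. The ratio of Men1 to Psip1 within a sample was 0.441, 0.375 and 0.353 with vehicle and 1.26, 0.744 and 1.98 with DS-5272.

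LEDGF shares its PWWP domain with the HDGF proteins. Of 3 tested relatives, Hdgf and Hdgfl2 were lower and Hdgfl3 was higher, with a median of −0.33. Of all tested genes, 22.0% were lower and 24.2% were higher. Hdgf, a growth factor-like nuclear protein, fell from 167.2, 169.6 and 172.5 to 87.83, 110.7 and 78.67 FPKM (log2 fold change −0.89, limma adjusted p = 0.00472), with DS-5272 replicate 2 the highest of the treated samples as for Psip1. Hdgfl2 fell by 0.33 on the log2 scale (limma adjusted p = 0.0202), and Hdgfl3 rose by 0.51 (limma adjusted p = 0.0335) but not on the common total.

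Dot1l (chr10:80755206-80795461, plus strand) was 19.79, 17.75 and 17.34 FPKM with vehicle and 14.15, 14.76 and 9.67 FPKM with DS-5272. The groups did not overlap, and DS-5272 replicate 3 was furthest from the vehicle samples. The mean went from 18.29 ± 1.31 to 12.86 ± 2.78 FPKM (SD, n = 3), which is −0.50 on the log2 scale (SE 0.17, 95% interval −0.89 to −0.10, limma adjusted p = 0.0469). This call was close to the threshold. It was lost without vehicle replicate 1 (adjusted p = 0.131), 2 (0.110) or 3 (0.0962) and in 3 other limma settings, and without DS-5272 replicate 3 the change was −0.32.

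DOT1L works in a complex with the AF10, AF17 and AF9 or ENL proteins. Of these partner genes, Mllt1, which encodes ENL, fell from 16.09, 14.45 and 15.59 to 11.92, 12.08 and 9.53 FPKM (log2 fold change −0.43, limma adjusted p = 0.0244). Mllt10 (AF10) did not pass at −0.23 but was called on the common total, and Mllt3 (AF9) and Mllt6 (AF17) were under 1 FPKM in every sample.

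Men1 (chr19:6334979-6340891, plus strand) was 14.02, 9.94 and 10.30 FPKM with vehicle and 11.58, 9.92 and 10.86 FPKM with DS-5272. DS-5272 replicates 1 and 3 lay within the range of the vehicle samples and replicate 2 just under it. The log2 fold change was −0.06 (SE 0.15, 95% interval −0.41 to 0.29, limma adjusted p = 0.744), and without vehicle replicate 1 it was 0.08.

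Most tested genes of the MLL complex list had lower RNA levels, though not the methyltransferase genes. Of 8 tested genes, Wdr5, Ash2l, Dpy30, Hcfc1, Hcfc2 and Tasp1 were lower and none was higher, with a median log2 fold change of −0.59, beside 22.0% of all tested genes lower. On the common total 6 were lower, beside 31.8% of all genes. Dpy30, a core subunit needed for H3K4 methylation, fell from 75.28, 68.64 and 71.05 to 39.66, 51.25 and 34.11 FPKM (log2 fold change −0.79, limma adjusted p = 0.00856). Tasp1 encodes the protease that cleaves MLL and is not a subunit of the complex. Its level fell from 8.53, 8.83 and 8.78 to 5.33, 4.95 and 3.70 FPKM (log2 fold change −0.79, limma adjusted p = 0.00593). The methyltransferase genes Kmt2a and Kmt2b had positive values of 0.42 and 0.30 and did not pass. The entry joining the subunit gene Rbbp5 with Tmem81, not among the 8, was at −0.28. It did not pass as deposited but was called lower on the common total. Members of this complex serve normal MLL, and several are shared with other complexes.

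**Figure D4:**
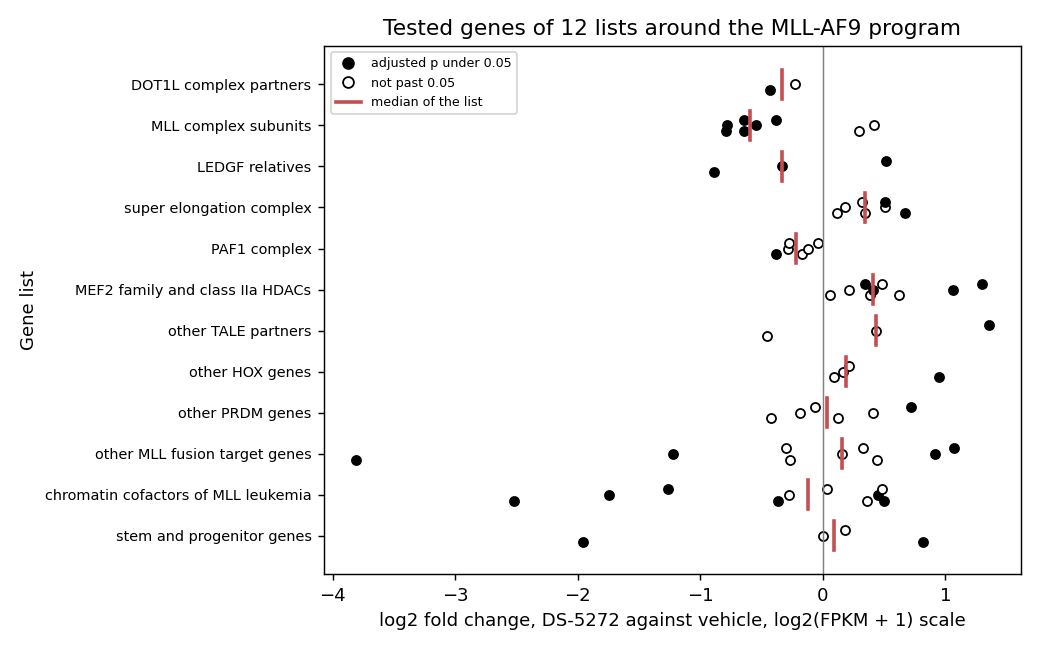
The log2 fold change on the log2(FPKM + 1) scale is plotted for each tested gene of 12 lists around the program, filled where the adjusted p was under 0.05, with a red line at the list median. The list of MLL complex subunits, which includes the protease gene Tasp1, has the lowest median (−0.59), and Flt3 is the point furthest to the left.

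Of 7 tested genes of the super elongation complex, which the fusion recruits, 2 were higher and none lower, with a median of 0.35, beside 24.2% of all tested genes higher. Ell2 had a log2 fold change of 0.67 (limma adjusted p = 0.00848) and Aff4 of 0.51 (limma adjusted p = 0.0346), and Ell2 alone was called on the common total. In the PAF1 complex, which binds MLL and the elongating polymerase, Rtf1 was the 1 gene of 6 that was lower (log2 fold change −0.38, limma adjusted p = 0.021). Of all tested genes, 22.0% were lower. On the common total 4 of 6 were lower, beside 31.8% of all tested genes. Of the TALE partners beside Meis1 and Pbx3, 3 were tested and Tgif1, a TALE repressor, was higher, from 17.88, 15.40 and 19.77 to 26.42, 53.82 and 70.50 FPKM (log2 fold change 1.35, limma adjusted p = 0.0175). The entry joining Pbx2 with Gpsm3, not among the 3, was also higher (log2 fold change 1.14, limma adjusted p = 0.00975). It was called on the common total as well, and the part of Pbx2 in it is not known.

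Of 9 tested genes among other reported targets of MLL fusions, 2 were higher, 2 were lower and 5 did not pass, which is near the shares of all tested genes (24.2% higher and 22.0% lower). Flt3, a receptor tyrosine kinase of progenitors, fell from 54.11, 34.02 and 29.07 to 2.75, 1.51 and 1.23 FPKM (log2 fold change −3.81, limma adjusted p = 0.000687). Myc fell from 49.48, 45.88 and 50.84 to 30.18, 26.14 and 10.33 FPKM (log2 fold change −1.23, limma adjusted p = 0.0312). Runx2, a Runt-domain factor, rose by 1.07 (limma adjusted p = 0.0125) and Lmo2, an adaptor of blood transcription factor complexes, by 0.92 (limma adjusted p = 0.00727), the latter not on the common total. Myb and Cdk6 did not pass.

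Of 10 chromatin cofactors of MLL leukemia, 4 were lower and 2 were higher, beside 22.0% and 24.2% of all tested genes. On the common total 5 were lower and none higher, beside 31.8% and 15.4% of all tested genes. Hmgb3 fell from 48.48, 50.47 and 47.77 to 7.13, 14.03 and 4.38 FPKM (log2 fold change −2.52, limma adjusted p = 0.00334). Cbx5, which encodes the heterochromatin protein HP1 alpha, fell by 1.74 on the log2 scale (limma adjusted p = 0.00703). Ep300 and Kat6a, both acetyltransferase genes, rose by 0.49 and 0.45 (limma adjusted p = 0.0328 and 0.0452) but not on the common total.

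The p53 target genes differed widely among the treated samples. Cdkn1a was 14.76, 28.09 and 25.45 FPKM with vehicle and 32.25, 117.0 and 485.2 with DS-5272, and Mdm2 was 27.10, 36.33 and 39.98 against 42.57, 78.83 and 209.6. All treated samples were higher, replicate 1 by the smallest margin, and neither gene passed in limma (adjusted p = 0.0611 and 0.0733). The 8 myeloid identity genes were expressed in all samples. Of these, 3 were higher and 4 were lower, beside 24.2% and 22.0% of all tested genes. Itgam was at 139.7 FPKM or above and Ptprc at 65.96 FPKM or above, and both rose, while Elane was at 210.0 FPKM or above and Mpo at 3.253 FPKM or above, and both fell. Of 14 myeloid maturation markers, 11 were higher and none lower, beside 24.2% and 22.0% of all tested genes. Among the 11, Ly6g had a mean of 0.208 FPKM with vehicle and 2.44 with DS-5272. It entered the test through the DS-5272 samples alone, so that its call is no support for its rise. The maturation markers summed to 288 to 1870 FPKM with vehicle and 3660 to 16200 with DS-5272. Whether their rise has a part in the changes of Psip1, Dot1l and Mef2c was not tested.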

How the data were processed

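Leukemia cells of 3 vehicle and 3 DS-5272 samples were profiled by strand-specific, paired-end RNA-Seq. The authors trimmed reads with cutadapt 1.8.1, aligned them to GRCm38 transcripts with TopHat2 2.1.1 and deposited FPKM values per gene from Cufflinks 2.2.1. The annotation was not given in the sources used here, and the quantification was not stated to use strand. FPKM values have length and library size divided out, so that no count model was applied. Lines that share a name were summed (435 names), 433 lines join several genes, and 7954 lines were at 0.

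Groups follow the sample labels. The groups were compared with limma 3.58.1 (R 4.3.3, two-sided, eBayes with a trend) in the 11130 names that averaged at least 1 FPKM, as log2(FPKM + 1), with Benjamini-Hochberg adjustment and a threshold of 0.05. Fold changes on this scale understate the change of low genes. Depth was read from low FPKM values relative to vehicle replicate 1 and was 0.809 to 1 with vehicle and 0.540 to 0.747 with DS-5272, so that low values are less precise with DS-5272. An exact permutation test of 3 against 3 cannot go below 0.1. The limma fit was tested on simulated data with independent samples and a spread taken from the vehicle samples for both groups. That setting differs from these data, so that it does not give the error of the fit here.

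Deviations from the group means correlated between same-numbered samples at 0.658, 0.209 and 0.43, all above 0.1, and between differently numbered samples from −0.576 to 0.335. The labels do not state a pairing, and the correlations do not settle it. Vehicle replicate 2 correlated more with DS-5272 replicate 3 (0.335) than with DS-5272 replicate 2 (0.209). The numbers, taken from the labels, were treated as pairing the samples only in an alternative fit with a replicate block. Other alternatives changed the pseudocount, filter, scaling, variance model, size of change and the samples included.

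The 9 members and 20 lists of 210 genes (193 under their own symbol, 8 under an older one, 7 in joined entries, 2 without an entry) were chosen with earlier results of these data known. Named genes are the members, up to 2 genes per list and direction with the largest change among those called, p53 target genes and the 3 genes nearest in profile to Meis1 and to the Hoxa9 entry. Other genes were named after their values were seen, and some genes of the lists are not reported here. Positions are from GENCODE M21 (GRCm38) and miRNA sequences from RefSeq (GRCm38.p6). Python 3.11.15 with pandas 2.3.3, numpy 2.4.6 and matplotlib 3.10.9 was also used.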

Additional observations from a re-analysis of the deposited data

How the results depend on the processing

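The counts over all genes were 2697 higher and 2451 lower. On the common total they were 1717 and 3536, with a limit of 1 on the size of the log2 change 978 and 621, and with 1 sample left out 1623 to 2934 higher and 1389 to 2432 lower. With the replicate block, 3367 were higher and 2771 lower, Psip1 was at −1.62, Dot1l had an adjusted p of 0.0226, and no member's call changed. One member, Mef2c, was higher as deposited and 0 with a mean of at least 5 FPKM, where it was not tested. Of the 2 members lower, 1 was called without a filter, with median ratio scaling, without the variance trend and with the limit of 1 on size, and 1 to 2 with 1 sample left out. In each of these Dot1l was the call lost. On the common total 4 were lower. The sign of uncalled members turned for Meis1 (−0.025) and Pbx3 (−0.16) on the common total, and with 1 sample left out Hoxa7,Mira ranged from −0.137 to 0.046 and Men1 from −0.146 to 0.082. Psip1 kept its direction and call in all 14 settings. Mef2c, which entered the test through the DS-5272 samples alone, ranged from 1.18 to 2.95, and its calls are no support for its change. The HOXA entries were called on the common total alone, not as deposited or with the other scalings. With 3 samples a group small changes can be missed, and at this depth the level of Mef2c with vehicle is near the limit of detection. The 0 of Mecom can be a failed estimate.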

Other observations

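Of 4 tested genes of stem and progenitor cells, 1 was higher and 1 was lower, near the shares of all tested genes (24.2% and 22.0%). Kit, the receptor by which the transduced progenitors were selected, fell from 45.04, 32.32 and 30.53 to 12.06, 9.70 and 4.94 FPKM (log2 fold change −1.96, limma adjusted p = 0.00462). Cd93, a surface protein of progenitors and of myeloid and endothelial cells, rose by 0.82 (limma adjusted p = 0.03) but not on the common total. Cd34 and Gata2 did not pass. Among 8 myeloid identity markers 3 were higher and 4 were lower. Itgam, the integrin CD11b, rose by 2.1 (limma adjusted p = 0.00306) and Ptprc, the pan-leukocyte CD45, by 1.18 (limma adjusted p = 0.00413). The primary granule genes Mpo and Elane fell, with log2 fold changes of −5.07 and −2.54 (limma adjusted p = 0.00136 and 0.00173). Mpo was 217.9, 140.4 and 325.1 FPKM with vehicle and 3.77, 12.19 and 3.25 FPKM with DS-5272. Of the maturation markers, Mmp9 and S100a9 rose by 4.33 and 4.08 (limma adjusted p = 0.00525 and 0.0213). Trp53 itself fell from 84.11, 63.9 and 70.8 to 41.49, 44.84 and 29.96 FPKM (log2 fold change −0.91, limma adjusted p = 0.00863).

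Among the genes with profiles nearest to Meis1 over the 6 samples, by Euclidean distance between centred log2(FPKM + 1) values, were Irak3 (0.0823) and Wac (0.0825). Those nearest to the Hoxa10,Hoxa9,Mir196b entry were Tcea2 (0.0992), Ttc39c (0.1) and Got1 (0.104). None of these genes was called as deposited, and the latter 3 were lower on the common total. These distances describe 6 samples and carry no test.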
